A study of Mus musculus with 7 samples.

Results

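Expression of the genes for serine/arginine-rich (SR) proteins, heterogeneous nuclear ribonucleoproteins (hnRNPs) and 6 related splicing regulators was examined in cultured neural stem cells (NSCs) of the mouse, which can give rise to neurons and glia. The genes were chosen by name: protein-coding symbols that start with Hnrnp or are Srsf followed by a number, plus Tra2a, Tra2b, Ptbp1, Ptbp2, Rbfox2 and Nova1. This gave 37 of the 55335 genes counted, namely 11 Srsf genes, 20 Hnrnp genes and the 6 others. All 37 passed the filter on low counts, which kept 13305 genes. The cells were of strain FVB/N and formed 2 genotypes, wild type (WT, 4 samples) and Smchd1-null (3 samples, labelled Smchd1MommeD1), which carries a null allele of a gene for a chromatin repressor. All were grown in NeuroCult medium with EGF and bFGF, no treatment or age is labelled, and the labels do not say which samples came from separate animals or cultures. P-values therefore measure only the spread between these samples, which may be technical.

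Splicing removes introns from pre-mRNA, and which exons are joined depends on proteins bound near the splice sites. SR proteins generally bind exons and promote their use, while many hnRNPs, and the polypyrimidine tract-binding proteins Ptbp1 and Ptbp2, often repress exons. Neural precursors are known for high Ptbp1, which is replaced by Ptbp2 as neurons form, and Rbfox and Nova proteins direct exon choice in neural cells. Many of these genes limit their own protein through alternative exons that expose the transcript to nonsense-mediated decay (NMD).

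PolyA RNA was sequenced as unamplified cDNA on nanopore flow cells in 2 batches, with kit DCS108 in batch 1 and DCS109 in batch 2. Batch 1 alone held WT replicate 2 with Smchd1-null replicates 1 and 2, batch 2 alone held Smchd1-null replicate 3 with WT replicates 3 and 4, and WT replicate 1 was run in both. The libraries held 2741820 to 7736498 counts. Smchd1 itself, a check of the labels, had 55.7 to 74.7 CPM (counts per M, or mega, counts of the scaled library) in WT and 12.8 to 18.4 CPM in Smchd1-null. All 10 NSC markers were tested, with summed levels of 8314 to 12763 CPM in WT and 8104 to 9480 CPM in Smchd1-null. Markers of microglia and of endothelial or mesenchymal cells summed to at most 4.80 CPM in any sample. The 8 astrocyte markers summed to 452 to 1210 CPM in WT and 351 to 582 CPM in Smchd1-null, with Aldoc lower at an adjusted p of 0.233 (limma) and no other marker past 0.25. Neuronal markers summed to 447 to 536 CPM and oligodendrocyte-lineage markers to 1009 to 1446 CPM over all samples. The part of such cells in the values below was not tested. In bulk RNA, fewer cells of a type and less RNA per cell cannot be told apart.

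The sequences of these genes bear on how their reads were counted. Processed pseudogenes are copies of a spliced mRNA inserted elsewhere in the genome, and a read is counted at the copy when its primary alignment falls there. Below is the spliced coding sequence of Hnrnpa3, a pre-mRNA-binding hnRNP of the A type, across the junction of exons 4 and 5 (GRCm38, chr2:75662062-75662106 joined to chr2:75662487-75662531, plus strand), with the same stretch of its most counted pseudogene, Gm5641 (chr3:54481908-54481997, plus strand). It is followed by Hnrnpk, which binds C-rich RNA, across the junction of exons 9 and 10 (chr13:58395165-58395209 joined to chr13:58394741-58394785, minus strand) and its pseudogene Gm7964 (chr7:83756504-83756593, plus strand). The sequences are from Gencode M21 transcripts. Capitals mark the 2 bases on each side of the junction in the gene, and bases that differ from the gene in the pseudogene.
Hnrnpa3: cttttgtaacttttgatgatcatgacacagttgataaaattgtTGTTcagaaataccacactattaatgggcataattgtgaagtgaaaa
Gm5641: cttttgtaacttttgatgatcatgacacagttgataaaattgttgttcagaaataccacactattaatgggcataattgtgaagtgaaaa
Hnrnpk: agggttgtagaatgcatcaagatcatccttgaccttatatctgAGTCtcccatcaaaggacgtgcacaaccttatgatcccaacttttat
Gm7964: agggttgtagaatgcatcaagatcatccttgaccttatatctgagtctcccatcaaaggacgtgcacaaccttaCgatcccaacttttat
Over these 90 bases Gm5641 had 0 differences from Hnrnpa3 and Gm7964 had 1 from Hnrnpk. The pseudogene copies run through the junction without an intron.

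Counts at such copies were gathered after the members' values had been seen. Aligning pseudogene transcripts to coding transcripts matched 87 processed pseudogenes to 16 of the 37 genes, and these held 54756 counts, 13.5% of the counts of the 37 genes and the pseudogenes together. Hnrnpa3 accounted for most of them: its 31 pseudogenes held 34587 counts, while Hnrnpa3 itself held 8725. The share at pseudogenes was 82.9, 79.9, 79.7 and 78.3% in WT replicates 1 to 4 and 78.0, 78.8 and 81.0% in Smchd1-null replicates 1 to 3. The genotypes overlapped in this share, and in every sample more than 3 in 4 of these counts lay outside Hnrnpa3.

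The pooled share was 42.1% for Hnrnpf, 26.0% for Ptbp1, 25.5% for Hnrnpk, 16.3% for Hnrnpa1 and 16.1% for Srsf3. It was at most 6.63% for the other 10 genes. For Hnrnpf it ranged from 28.8% in WT replicate 4 to 48.2% in Smchd1-null replicate 2. Gm5641 alone had 342 to 468 CPM, and its transcript aligned to Hnrnpa3 with 100% identity over its length. Whether reads at these loci were transcribed there or from the parent gene cannot be told apart in gene counts, so levels of these genes are uncertain.

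**Figure D1:**
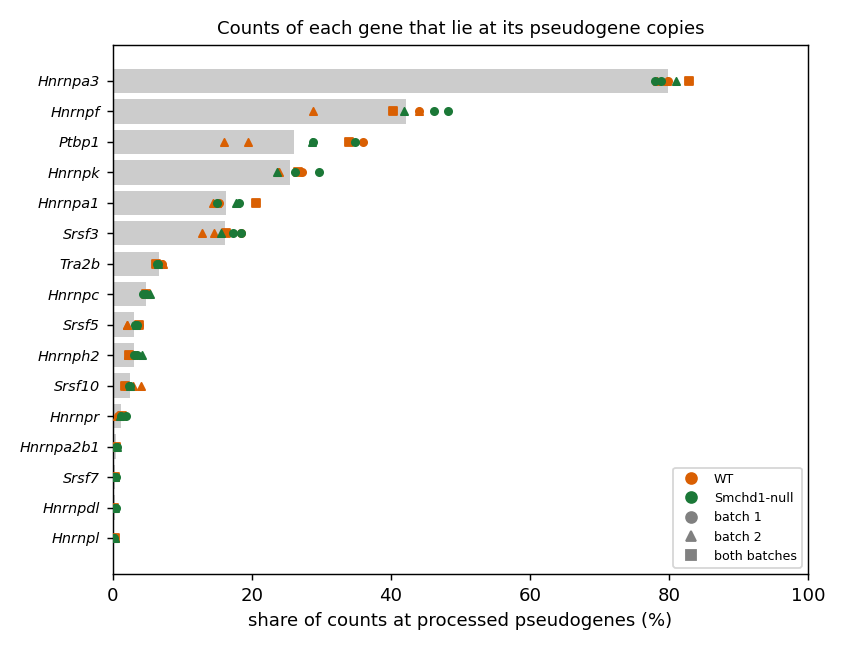
Share of counts at processed pseudogenes (x axis, % of the counts of the gene and its pseudogenes) for the 16 genes with a match. Bars are pooled over the 7 samples and points are single samples, coloured by genotype and shaped by batch. Hnrnpa3 stands at 78.0 to 82.9% in all samples.

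Levels in WT were compared per kilobase of gene length, as CPM per kb. This division favours short genes where a long read stands for 1 molecule whatever its length, and length and undivided CPM had a Spearman correlation of 0.09 across all tested genes and 0.08 across the 37. Apart from which genes were the 3 highest and the 5 lowest, the order below holds only after division by length. Of the 4 genes of the hnRNP A type, 3 were the highest, and the SR genes ranged from 1.30 to 107 CPM per kb. Together the 37 genes took 1.08 ± 0.11% of all counts over the 4 WT samples and 1.05 ± 0.06% over the 3 Smchd1-null samples (SD). The highest were Hnrnpa2b1 (266 ± 32.1 CPM per kb), Hnrnpa1 (216 ± 13.8) and the single-exon gene Hnrnpa0 (216 ± 32.4; SD, n = 4 for each), all 3 RNA-binding proteins that often repress exons. Hnrnpa2b1 (chromosome 6, 51460932 to 51469894, minus strand) had 1939, 1801, 1817 and 1448 CPM in WT samples 1 to 4, and 1804, 1595 and 1718 CPM in Smchd1-null samples 1 to 3. Hnrnpa1 (chromosome 15, 103240432 to 103246692, plus strand) had 687, 631, 737 and 675 CPM in WT samples 1 to 4, and 588, 699 and 677 CPM in Smchd1-null samples 1 to 3. Hnrnpa0 (chromosome 13, 58125879 to 58128556, minus strand) had 544, 579, 698 and 495 CPM in WT samples 1 to 4, and 656, 667 and 628 CPM in Smchd1-null samples 1 to 3. Genotypes overlapped for all 3. These 3 were also the highest in undivided CPM before pseudogene counts were joined. With pseudogene counts joined, Hnrnpa3, the other A-type gene, moved in this order from rank 16 (48.9 CPM per kb) to rank 3 (249.7 ± 33.8 CPM per kb, SD, n = 4), between Hnrnpa1 (259 CPM per kb) and Hnrnpa0 (217 CPM per kb).

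Below these, Srsf9 (107 CPM per kb) and Hnrnpdl (100.4 CPM per kb) were the other genes above 100 CPM per kb. The place of Srsf9 rests on its length of 1653 bases: in undivided CPM it ranked 21 with 176 CPM, below Hnrnpk (572 CPM), Hnrnpu (559.7 CPM) and Srsf3 (448 CPM). A further 27 genes lay between 10 and 100 CPM per kb, and 5 lay below 10. These 5 were Srsf2 (6.14 CPM per kb), Rbfox2 (4.88), Ptbp1 (2.83), Srsf12 (1.43) and Srsf4 (1.30), and the same 5 were the lowest in undivided CPM. With pseudogene counts joined, Hnrnpk moved from 88.5 to 118.6 CPM per kb, above Srsf9 at 106.8, and Hnrnpf moved from 57.4 to 95.6 CPM per kb. Srsf4 (chromosome 4, 131873617 to 131901706, plus strand), a classical SR protein, had 4.88, 4.89, 3.41 and 5.32 CPM in WT samples 1 to 4, and 4.13, 2.79 and 5.84 CPM in Smchd1-null samples 1 to 3. Srsf12 (chromosome 4, 33208991 to 33233340, plus strand), an SR protein described as a splicing repressor, had 4.88, 5.55, 2.62 and 4.97 CPM in WT samples 1 to 4, and 1.13, 2.40 and 5.20 CPM in Smchd1-null samples 1 to 3. Both rested on few reads, 11 to 31 counts per sample for Srsf4 and 3 to 29 for Srsf12, and the genotypes overlapped for both.

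Several of the low genes share their last exon with another gene. In the main coding transcript, exons of other genes covered all of the last exon of Srsf4 (100%, antisense Gm12992), 52.1% of that of Hnrnpab (Phykpl), 43.4% of that of Srsf2 (Mettl23) and 33.8% of that of Ptbp1 (Gm17134), all antisense. No other member reached 30%, and 32 of the 37 shared none. Of the 5 genes below 10 CPM per kb, 3 were among these 4. Among 11156 tested protein-coding genes, the median level was 1.86 CPM per kb for the 550 with at least 30% shared and 6.10 CPM per kb for the 9709 with none. Gm12992 held 4 counts over all samples and Gm17134 held 0. The counting is not stated to use strand or to keep reads that overlap more than 1 gene, and its part in these levels was not tested.

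**Figure D2:**
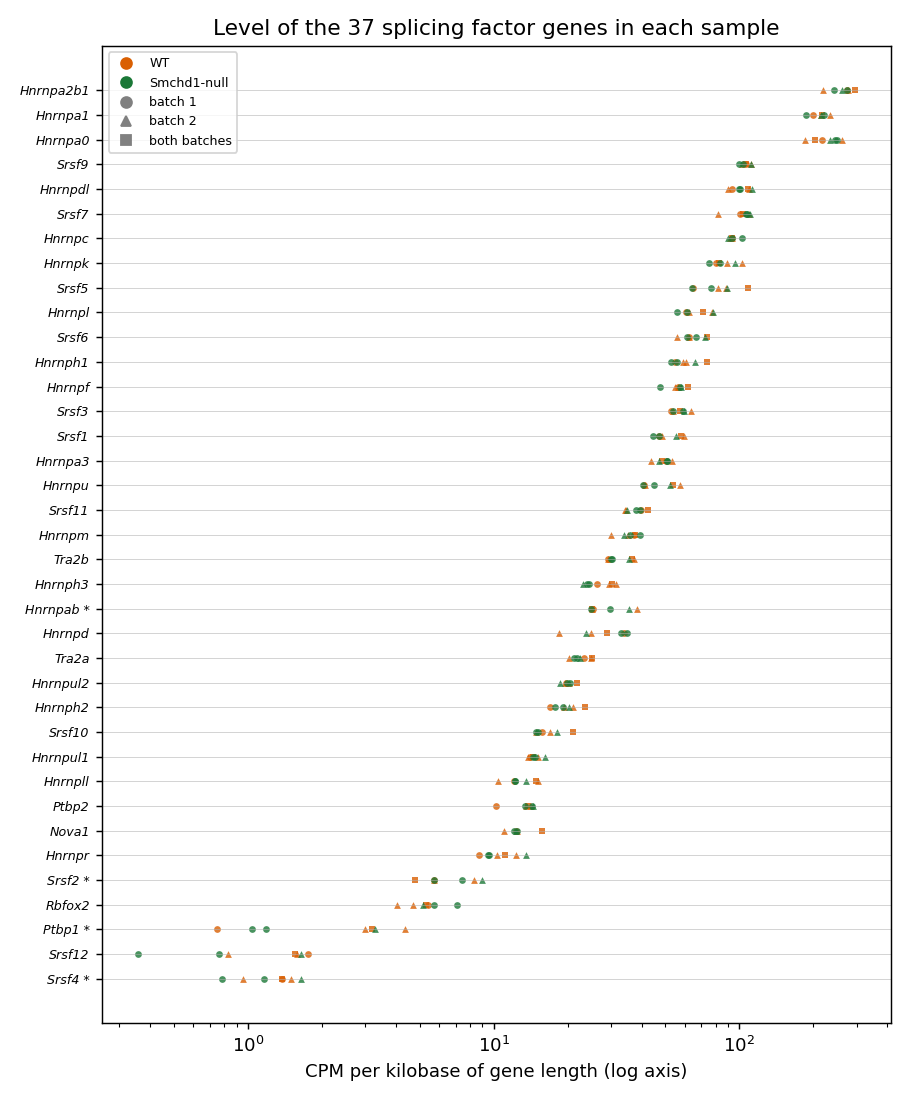
Level of each of the 37 genes in each sample (x axis, CPM per kilobase, log axis), ordered by the WT mean after division by length. Colour gives genotype and shape gives batch, and an asterisk marks genes with at least 30% of the last exon in another gene, of which 3 lie among the 5 lowest.

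In the annotation, 23 of the 37 genes (62.2%) had at least 1 transcript marked as a target of NMD, compared with 29.5% of the 11157 tested protein-coding genes. For the SR genes this was 9 of 11. The 37 genes also had more annotated transcripts, a median of 8 against 5. Gene counts add all transcripts, so shifts between these isoforms would not be seen in the values below.

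The comparison of Smchd1-null with WT asked whether loss of the repressor altered these genes. None of the 37 passed the test. With limma, 0 of 37 had an adjusted p under 0.05 (0.0902% of all tested genes) and 0 of 37 had one under 0.25 (1.08% of all). At an unadjusted p under 0.05 there were 3 of 37 (8.11%), compared with 13.9% of all tested genes, and edgeR's quasi-likelihood test gave 0 calls under 0.25 (0.0601% of all) and 1 gene, Hnrnph3, at an unadjusted p under 0.05 (5.07% of all). The median log2 fold change (Smchd1-null over WT) was -0.08 for the 37 genes and 0.0049 for all tested genes, with 12 genes positive and 25 negative. The fit gave Smchd1-null replicates 1 and 2, of batch 1, weights of 2.03 and 1.83, and replicate 3 a weight of 0.67. WT replicates 1 to 4 had weights of 1.06, 0.65, 1.29 and 0.45. Signs of small differences depend on these weights, and with unweighted voom the median of the 37 was -0.036. The median size regardless of sign was 0.12, against 0.20 for all tested genes. The 37 genes were also less noisy, with a median standard error (SE) of 0.12 against 0.19. Their median SD of log-CPM within genotypes was 0.17 against 0.28. The smaller size is therefore not read as a smaller response, and the part of noise in it was not tested. The 37 genes were longer than the tested genes, with a median length of 5842 against 4160 bases. Log2 fold change and length had a Spearman correlation of -0.38 across all tested genes, which share their libraries, and of 0.09 across the 37. With the length trend of each sample removed, the median of the 37 was -0.0082. With batch as a covariate it was -0.0054, with 17 genes positive and 20 negative, and 11 of the 37 changed sign.

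The 95% intervals came from the fit with genotype alone. They do not allow for batch, and 11 of the 37 estimates changed sign with batch as a covariate. For 29 of the 37 genes the interval lay within 0.5 of 0 on the log2 scale, and for 34 within 1. The genes outside 0.5 were Hnrnpd, Hnrnph3, Ptbp1, Rbfox2, Srsf12, Srsf2, Srsf4 and Srsf5. Leaving out WT replicate 2 gave 6 genes with an adjusted p under 0.25 (22.7% of all genes), and leaving out Smchd1-null replicate 3 gave 8 (23.5% of all). Without WT replicate 2, batch 1 alone holds Smchd1-null samples only, and without Smchd1-null replicate 3, batch 2 alone holds WT samples only. With batch as a covariate on the same samples 0 of 37 passed, but these fits called very few genes of any kind (0.00776% of all without WT replicate 2 and 0.0149% without Smchd1-null replicate 3). Most log2 fold changes of the called members shrank in those fits, such as Hnrnpd from 0.37 to 0.01 without WT replicate 2. The exceptions were Hnrnph3 without WT replicate 2 and Srsf12 without Smchd1-null replicate 3. Without WT replicate 2, Hnrnph3 had -0.32 and, with batch as a covariate, -0.37 (SE 0.16). Hnrnph3 shrank without Smchd1-null replicate 3, from -0.29 to -0.15 (SE 0.17). Without Smchd1-null replicate 3, Srsf12 had -1.02 and then -1.49 (SE 0.54), while Ptbp1 had -1.35 and then -0.02 (SE 0.54). In these smaller sets batch and genotype are partly aligned and are only poorly told apart.

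**Figure D3:**
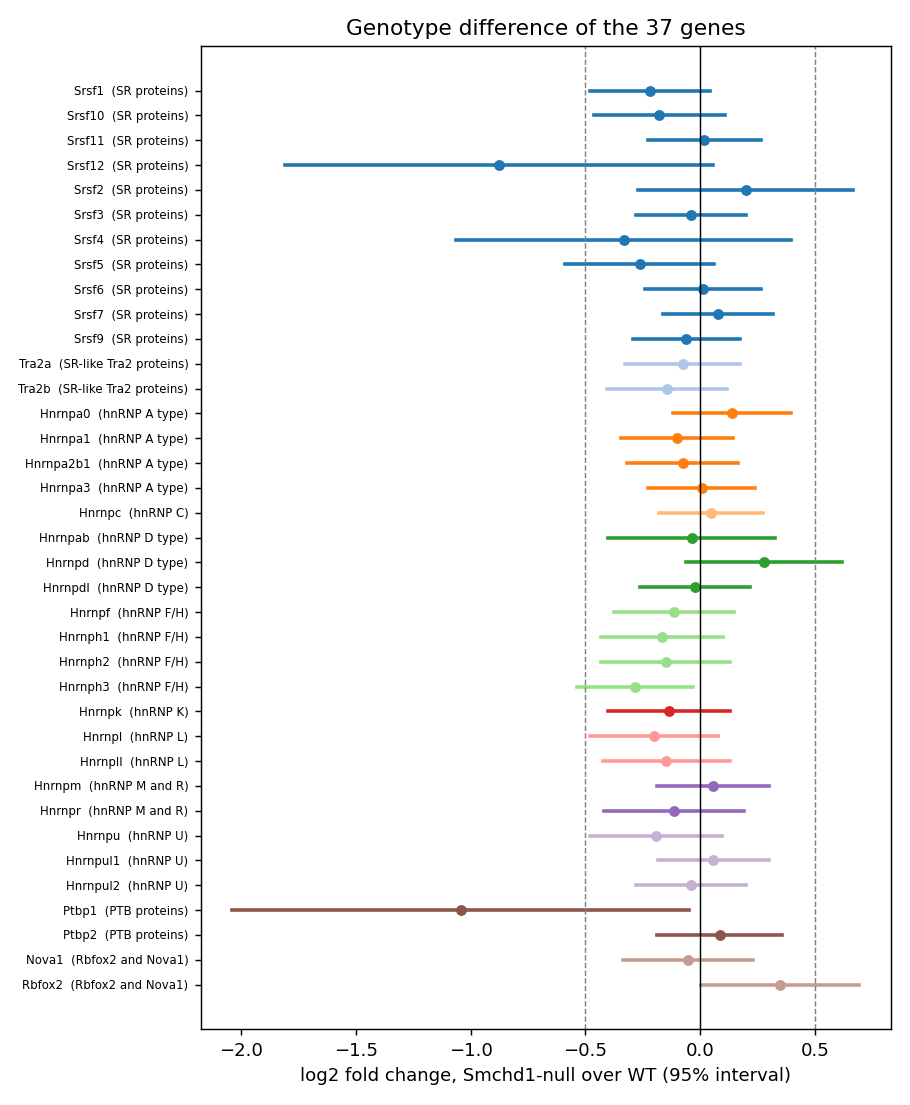
Log2 fold change of each of the 37 genes, Smchd1-null over WT (x axis), with its 95% interval from limma, coloured by protein group. The fit held genotype alone, without batch. Dashed lines mark 0.5 on each side of 0, and 29 intervals lie between them.

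By role, the 11 SR genes ranged from -0.88 (Srsf12) to 0.20 (Srsf2, which binds exonic enhancers), with a median of -0.06, 4 positive and 7 negative. Tra2a and Tra2b, SR-like activators, had -0.08 and -0.14. The 4 genes of the hnRNP A type lay between -0.10 and 0.14, and Hnrnpc, which binds uridine tracts, had 0.05 with an interval of -0.18 to 0.27. The 4 F/H genes, whose proteins bind G-rich RNA, had values from -0.28 to -0.11. With batch as a covariate these ran from -0.24 (Hnrnph3) to 0.0037 (Hnrnph2), with Hnrnph1 at -0.01, and with pseudogene counts joined Hnrnpf had 0.023. Hnrnpk had -0.14, Hnrnpl and Hnrnpll, which bind CA-rich RNA, -0.20 and -0.15, and Hnrnpm and Hnrnpr 0.06 and -0.12. With batch as a covariate Hnrnpk had -0.0054, Hnrnpl -0.02, Hnrnpll -0.03 and Hnrnpm -0.0034, while Hnrnpr had 0.14, with 0.13 within batch 1 and 0.27 within batch 2. Among the 3 D-type genes, which bind AU-rich RNA, the values were 0.28 for Hnrnpd, -0.04 for Hnrnpab and -0.02 for Hnrnpdl, and with batch as a covariate 0.02, 0.13 and 0.09. Hnrnpu, a nuclear scaffold protein, and its relatives Hnrnpul1 and Hnrnpul2 had -0.19, 0.06 and -0.04, and with the covariate 0.01, 0.10 and -0.04. The covariate gave the 11 SR genes a median of -0.02, from -0.60 (Srsf12) to 0.34 (Srsf2), with 5 positive and 6 negative.

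Hnrnph3, an F/H-type hnRNP (chromosome 10, 63014664 to 63024217, minus strand), was the only member whose genotypes did not overlap. It had 95.2, 83.1, 92.5 and 98.8 CPM in WT samples 1 to 4, and 75.4, 77.1 and 72.5 CPM in Smchd1-null samples 1 to 3. Every Smchd1-null sample was below every WT sample, as for 3.01% of all tested genes, while 0 of 37 had all Smchd1-null samples above (2.52% of all). The means were 92.4 ± 6.73 CPM over the 4 WT samples and 75.0 ± 2.30 CPM over the 3 Smchd1-null samples (SD). The log2 fold change was -0.28 (SE 0.12, 95% interval -0.54 to -0.03), with an unadjusted p of 0.029 and an adjusted p of 0.327 (limma). The difference in log-CPM was -0.12 in batch 1 and -0.40 in batch 2. An exon of Rufy2 overlaps it antisense by up to 115 bases.

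Ptbp1, the repressor of neural exons (chromosome 10, 79854427 to 79864771, plus strand), had 15.1, 3.55, 20.7 and 14.2 CPM in WT samples 1 to 4, and 5.63, 4.92 and 15.6 CPM in Smchd1-null samples 1 to 3. The 3 samples of batch 1 alone were the lowest whatever their genotype, and those with reads from batch 2 were 14.2 CPM or higher. The means were 13.4 ± 7.17 CPM over the 4 WT samples and 8.71 ± 5.96 CPM over the 3 Smchd1-null samples (SD). The log2 fold change was -1.04 (SE 0.46, 95% interval -2.04 to -0.05), with an unadjusted p of 0.041 and an adjusted p of 0.345 (limma). With batch as a covariate it was -0.07 (adjusted p = 0.966), and within the batches it was 0.52 in batch 1 and -0.14 in batch 2. The gene rested on 15 to 83 counts per sample.

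Ptbp2, its paralog (chromosome 3, 119718742 to 119784466, minus strand), had 126, 94.0, 131 and 124 CPM in WT samples 1 to 4, and 132, 123 and 133 CPM in Smchd1-null samples 1 to 3. WT replicate 2 was lowest and the genotypes overlapped. Its fitted log2 fold change stood at 0.08 (SE 0.13, adjusted p = 0.772). With batch as a covariate it was 0.25 (unadjusted p = 0.0387, adjusted p = 0.598, limma), and within the batches it was 0.44 in batch 1 and 0.06 in batch 2. Per kilobase in WT, Ptbp2 stood at 13.0 ± 1.83 and Ptbp1 at 2.83 ± 1.51 CPM per kb (SD, n = 4 for each). Part of the last exon of Ptbp1 lies in another gene and 26.0% of its counts with its pseudogene lay at the pseudogene, and their part in this order was not tested. Ptbp1 mRNA is a known target of miR-124, and Mir124-2hg, a host gene of this miRNA, had 11.0, 12.2, 15.5 and 16.8 CPM in WT samples 1 to 4, and 5.63, 3.06 and 3.25 CPM in Smchd1-null samples 1 to 3. Mir124-2hg fell by 1.86 on the log2 scale (SE 0.29, adjusted p = 0.0368), and Mir124a-1hg did not pass the filter, with at most 18 counts.

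Rbfox2, which binds GCATG-type motifs beside exons (chromosome 15, 77078990 to 77307004, minus strand), had 43.2, 44.2, 33.0 and 38.4 CPM in WT samples 1 to 4, and 57.8, 46.4 and 42.0 CPM in Smchd1-null samples 1 to 3. Smchd1-null replicates 1 and 2 were above all WT samples, and replicate 3 lay among them. The means were 39.7 ± 5.12 CPM over the 4 WT samples and 48.7 ± 8.15 CPM over the 3 Smchd1-null samples (SD). The log2 fold change was 0.35 (SE 0.16, 95% interval 0.0046 to 0.69), with an unadjusted p of 0.047 and an adjusted p of 0.356 (limma). The difference in log-CPM was 0.23 in batch 1 and 0.23 in batch 2, and with batch as a covariate the log2 fold change was 0.21 (adjusted p = 0.738). Nova1, a neuronal splicing regulator (chromosome 12, 46694517 to 46818929, minus strand), had 137, 108, 96.5 and 109 CPM in WT samples 1 to 4, and 108, 106 and 108 CPM in Smchd1-null samples 1 to 3, with WT replicate 1 highest and the other 6 samples within 96.5 to 109 CPM. Its log2 fold change was -0.05 (SE 0.13, adjusted p = 0.870).

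**Figure D4:**
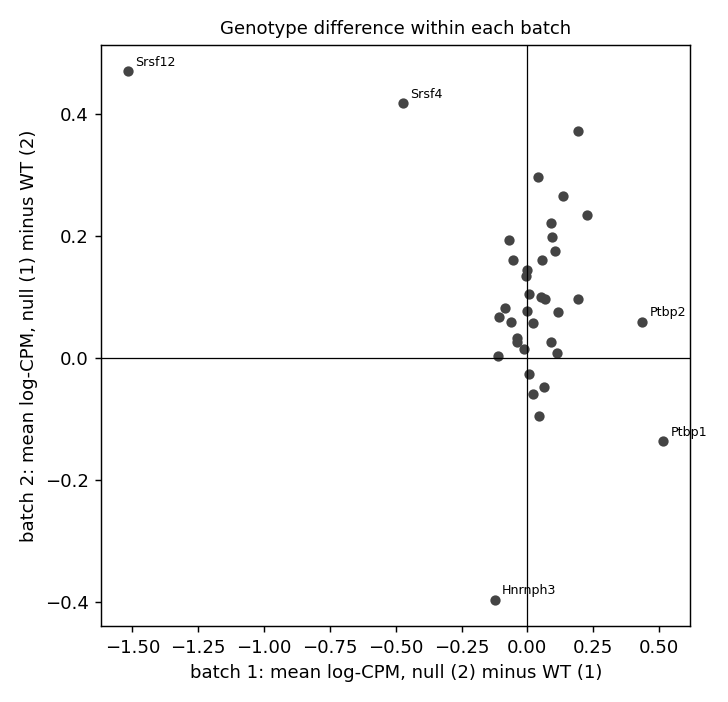
Difference in mean log-CPM between Smchd1-null and WT within batch 1 (x axis, 2 null samples against 1 WT sample) and batch 2 (y axis, 1 null sample against 2 WT samples), WT replicate 1 left out. Each point is 1 of the 37 genes, of which 19 have the same sign in both batches.

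Each within-batch difference rested on 1 sample of a genotype. The share of all tested genes with the same sign in both batches is not given. Of the 37 genes, 19 had the same sign in both. The batches were therefore compared themselves, with genotype kept in the fit and the batch share of WT replicate 1 set to 0.5, a choice made after the values had been seen. Between batches, 4 of 37 genes (10.8%) had an adjusted p under 0.05, against 12.4% of all tested genes, and 14 (37.8%) had one under 0.25, against 38.7% of all. Of the 14, 12 (32.4% of the 37) were higher in batch 2, against 18.9% of all genes, and 2 (5.41%), Hnrnpd and Rbfox2, were lower, against 19.8% of all. Samples of batch 1 alone and batch 2 alone did not overlap for 12 of 37 genes, against 32.6% of all genes. In limma on all 7 samples the share of the 37 genes that differed was close to that of all genes. The library kit, the flow cell and the cells of each batch cannot be told apart.

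Ptbp1 had the smallest p of the 37 genes between batches. It rose by 1.81 on the log2 scale in batch 2 (95% interval 1.24 to 2.38, adjusted p = 0.0025). Hnrnpd, also known as AUF1, which promotes decay of AU-rich mRNAs, had 213, 249.9, 183 and 136 CPM in WT samples 1 to 4, and 256, 244 and 174 CPM in Smchd1-null samples 1 to 3. It was lower in batch 2 by a log2 difference of -0.55 (95% interval -0.77 to -0.32, adjusted p = 0.0068). All 3 batch 1 samples were above WT replicate 1, and that sample above all 3 of batch 2.

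Hnrnpr, an RNA-binding protein related to Syncrip, had 246, 193, 273 and 230.0 CPM in WT samples 1 to 4, and 212, 211 and 301 CPM in Smchd1-null samples 1 to 3. It was higher in batch 2 by a log2 difference of 0.48 (95% interval 0.27 to 0.69, adjusted p = 0.0088), with no overlap between batches. Hnrnpl had 423, 362, 462 and 370.4 CPM in WT samples 1 to 4, and 331, 366 and 463 CPM in Smchd1-null samples 1 to 3. It was higher in batch 2 by a log2 difference of 0.35 (95% interval 0.14 to 0.57, adjusted p = 0.0359), with its lowest batch 2 sample, WT replicate 4, close to the highest batch 1 sample. With edgeR 4 of the 37 genes (10.8%) had an adjusted p under 0.25 between batches, against 18.5% of all tested genes. They were Ptbp1, Hnrnpd, Hnrnpr and Hnrnpk, and Hnrnpl did not pass (adjusted p = 0.263). With the trend of log-CPM with gene length removed, Hnrnpr, a gene of 22199 bases, did not pass 0.25 (adjusted p = 0.359, limma).

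**Figure D5:**
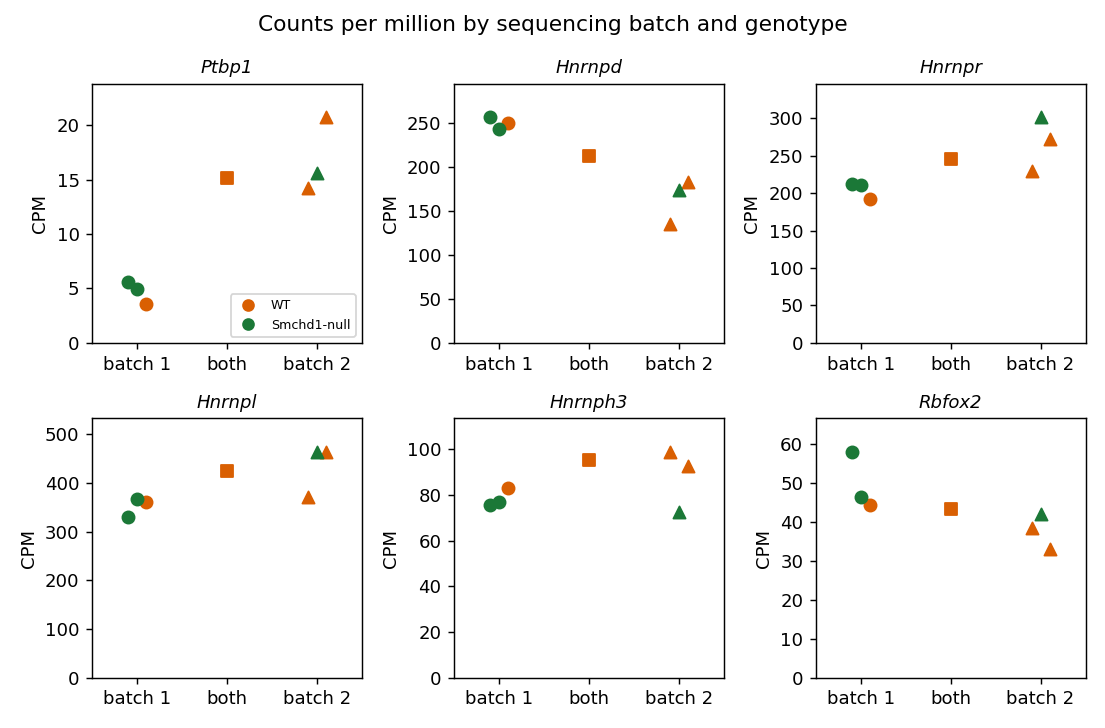
CPM (y axis, from 0) of 6 genes in each sample, placed by batch along the x axis and coloured by genotype. Ptbp1 lies at or below 5.63 CPM in batch 1 and at or above 14.2 CPM in the samples with reads from batch 2.

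Joining the pseudogene counts to their genes left 0 of 37 with an adjusted p under 0.25 (1.12% of all genes). For Hnrnpa3 the level was then 1347 ± 183 CPM in the 4 WT samples and 1290 ± 58.7 CPM in the 3 Smchd1-null samples (SD), compared with 264 ± 21.6 CPM over the 4 WT samples and 267 ± 10.3 CPM over the 3 Smchd1-null samples (SD) before. Its log2 fold change moved from 0.0066 to -0.13 (SE 0.11, adjusted p = 0.602). For Hnrnpf it moved from -0.11 to 0.023 (SE 0.12, adjusted p = 0.944). Of the 41 pseudogenes that passed the filter, 0 had an adjusted p under 0.25 (limma) and 1 had an unadjusted p under 0.05.

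The proteins that work with these factors were examined from lists of related genes. The values of these lists came from the limma fit with genotype alone, with neither batch nor gene length in it. Of the core spliceosome, the machine that carries out splicing, 36 of 37 genes were tested, 0 passed 0.25 in either direction, and the median log2 fold change was 0.10. The smallest p was for Sf3b5, a subunit of the U2 particle, with 161 ± 39.7 CPM over the 4 WT samples and 203 ± 31.3 CPM over the 3 Smchd1-null samples (SD), and an adjusted p of 0.294. In batch 1 alone Sf3b5 had 217 CPM in WT replicate 2 and 229 and 213 CPM in Smchd1-null replicates 1 and 2. In batch 2 alone it had 161 and 144 CPM in WT replicates 3 and 4 and 168 CPM in Smchd1-null replicate 3. Of 10 kinases and import factors of SR proteins, 0 passed, with a median of -0.20, and Clk4, a kinase that phosphorylates SR proteins, had -0.31 (SE 0.14, adjusted p = 0.349).

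Of 33 other splicing regulators 29 were tested and 0 passed, with a median of -0.14. Khdrbs3, a STAR-family RNA-binding protein, had 0.51 (SE 0.15, adjusted p = 0.275). Its levels in batch 1 alone were 207 CPM in WT replicate 2 and 289 and 238 CPM in Smchd1-null replicates 1 and 2. In batch 2 alone they were 171 and 140 CPM in WT replicates 3 and 4 and 187 CPM in Smchd1-null replicate 3. Of 10 NMD factors 0 passed, with a median of -0.12, and Smg5 had 0.37 (SE 0.15, adjusted p = 0.326). At an unadjusted p under 0.05 in limma there were 4 of 36 core spliceosome genes (11.1%), 2 of 10 kinases and import factors, 8 of 29 other regulators (27.6%) and 2 of 10 NMD factors, against 13.9% of all tested genes.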

How the data were processed

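The deposited files hold whole-number counts of reads per gene and the gene length in bases, not normalised. To make them, the authors aligned reads to mm10 with minimap2 (2.17 in the submitters' processing notes) and the authors counted primary long-read alignments with featureCounts on Gencode annotation of GRCm38. The strand setting is not given in the sources used here. Both runs of WT replicate 1 were deposited as a sum. Symbols, coordinates and transcripts came from Gencode M21, which matched 55154 of 55335 identifiers with the version ignored.

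Genes were filtered with filterByExpr (genotype as group) and scaled by TMM. The test was limma's voomWithQualityWeights (two-sided, genotype only, 7 samples), with Benjamini-Hochberg adjustment over 13305 genes, at 0.05 and 0.25. CPM used TMM-scaled library sizes and log-CPM a prior count of 2. Batch was tested as the share of batch 2 in a fit with genotype. Pseudogene transcripts were aligned to coding transcripts with minimap2 2.31-r1302, keeping the best match with at least 50% aligned and 80% identity. Alternatives were edgeR, DESeq2, unweighted voom, other scaling and filters, batch, a replicate block, removal of a length trend (lowess, span 0.3), each replicate left out, and joined pseudogene counts. Software was R 4.3.3, limma 3.58.1, edgeR 4.0.16 and DESeq2 1.42.0, and the fits were tested on simulated data. Values per sample were given for Ptbp1, Ptbp2, Rbfox2, Nova1, members with an unadjusted p under 0.05 or without overlap, and the 3 highest and 3 lowest per kilobase. Hnrnpd, Hnrnpr, Hnrnpl, the last-exon comparison and the pseudogenes were added with the values in view. The members and lists were chosen with earlier results of these data known. Same-numbered samples had correlations of deviations of -0.04, 0.36 and 0.09, so the numbers were not taken to pair samples. Counts of a gene and of a copy or antisense partner are uncertain.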

Additional observations from a re-analysis of the deposited data

Results flagged for a closer look

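Among the 4 WT samples, Ptbp2 was far from the others in WT replicate 2, with a log-CPM of 6.56 against 6.96 to 7.03. Hnrnpab was far from the others in WT replicate 3, with a log-CPM of 6.74 against 6.13 to 6.16. Such a gap is found by chance in about 1 in 20 groups, so about 1.85 of the 37 genes compared would show one, and 2 did.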

How the results depend on the processing

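No member passed an adjusted p of 0.25 between genotypes under any alternative other than leaving out WT replicate 2 (6 genes) or Smchd1-null replicate 3 (8 genes). Over the fits that leave out 1 replicate, members past 0.25 numbered 0 to 8, members at an unadjusted p under 0.05 numbered 0 to 8, members without overlap 1 to 4, all genes past 0.25 1 to 3153, and genes of the 4 related lists 0 to 27. For these fits the shares of all genes at an unadjusted p under 0.05 and without overlap are not given. The member ranges for those 2 measures are therefore not read as results about the members. Nova1 ranged from -0.17 to 0.064 and Srsf4 from -0.51 to 0.22 over these fits. The 3 members at an unadjusted p under 0.05 became 1 with edgeR, DESeq2, unweighted voom, all genes with at least 1 count, the batch covariate without WT replicate 1, WT replicate 2 or Smchd1-null replicate 3, and the replicate block with the length trend removed, and 0 with the replicate block alone. Of all tested genes, 13.9% were under that unadjusted p in the main fit and 5.07% with edgeR, and the share is not given for the other settings. All genes past 0.25, 144 in number, became 8 with edgeR, 32 with DESeq2, 10 with unweighted voom, 22 with all genes having at least 1 count, 346 with at least 10 counts in every sample (3 of them in the related lists, Mbnl2, Khdrbs3 and Qk), 74 with the batch covariate, and 76 with the length trend removed. With the batch covariate they became 31 without WT replicate 1, 1 without WT replicate 2 and 2 without Smchd1-null replicate 3. The median of the members was 0.030 with the batch covariate without WT replicate 1. With the length trend removed, 3 members had no overlap, Hnrnph3, Ptbp2 and Hnrnpul1. The share of all tested genes under that setting is not given, so this count is not read as a result about the members. In the main fit 3.01% of all tested genes had every Smchd1-null sample below WT and 2.52% had every one above.

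With the batch covariate, the log2 fold change changed sign to 0.045 for Ptbp1 and 0.039 for Nova1 without WT replicate 1, to 0.056 for Srsf12 and 0.20 for Srsf4 without WT replicate 2, and to 0.021 for Hnrnpa1 without Smchd1-null replicate 3. Nova1 had 0.064 without WT replicate 1, 0.040 with the length trend removed and 0.012 with the replicate block as well, and Srsf4 had 0.22 without Smchd1-null replicate 2. None of these passed 0.25, and the cause was not tested. Between batches at an adjusted p under 0.25, edgeR gave 4 of 37 members and 2463 of 13305 genes. The limma fit without WT replicate 1 gave 17 of 37 members and 4880 of 13107 genes, a larger share of the members than of all genes. With the replicate block, 0 members and 129 genes passed 0.25. Counts of 3 to 83 limit Ptbp1, Srsf4 and Srsf12.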
